A study of Mus musculus with 6 samples.

Results

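The Toll-like receptor genes are described here across 6 skeletal muscle arrays of mdx mice. The members were 10 listed receptors, Tlr1 to Tlr9 and Tlr13, and 9 of them had a probe set carrying their symbol alone, among 19752 genes measured. Tlr5, the receptor for bacterial flagellin, is not analysed here. Each of the 9 genes was measured by 1 probe set. The members were chosen with earlier results of these data known, so counts over them are descriptions.

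Toll-like receptors are membrane proteins through which innate immune cells recognise microbes and products of damaged cells. Tlr1, Tlr2, Tlr4, Tlr5 and Tlr6 act at the cell surface, whereas Tlr3, Tlr7, Tlr8, Tlr9 and Tlr13 act in endosomes, where they meet nucleic acids. Ligand binding recruits adaptors such as Myd88 or Ticam1, and kinases then activate NF-kB and interferon regulatory factors. In muscle that degenerates, macrophages that clear dying fibres are among the cells known to carry these receptors.

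All animals carried the mdx mutation, which removes dystrophin from every muscle, so the controls are dystrophic too and no healthy muscle is part of the comparison. Treated mice (3 samples) received the anti-CD25 monoclonal antibody PC61, whose target, the alpha chain of the interleukin-2 receptor, is abundant on regulatory T cells, and control mice (3 samples) received rat IgG. The study's title names regulatory T cell depletion in dystrophic muscle as the question. Each agent was given intraperitoneally 2 times, on days 17 and 20 of age, in an amount the design text writes as 100 mg. Dissection 7 days after the last dose would be day 27, whereas 6 weeks, the labelled age, is day 42. The labels describe skeletal muscle without naming which muscle, and do not tie samples to individual mice, so the p-values here reflect sample-to-sample spread that may be technical in part. With 3 arrays a group, precision is limited.

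The arrays had median intensities of 149.8 to 151.5, and pairs of arrays correlated at Pearson r = 0.991 to 0.996 across genes (genes are not independent replicates). The labels call every animal male, but Xist, the RNA of the inactive X chromosome, lay at 11.77 to 11.94 log2 units on 4 arrays, with the Y-linked Kdm5d at 5.09 or below. The remaining arrays, 1 per group (rat IgG 3, anti-CD25 3), had Xist values of 5.48 and 5.49 and Kdm5d values of 7.80 and 7.85. Each group thus held 2 high-Xist arrays and 1 low-Xist array, and differences are given within each kind below. Within each kind the lower quartile of intensity also differed between the groups, in opposite directions. A contrast between the kinds cannot be told apart from that. The tissue matched its label, since the 11 muscle fibre markers, such as Acta1 and Ckm, all lay at or above the 99.5th percentile of gene brightness. Foxp3, the regulatory T cell factor, differed by -0.092 log2 units (95% interval -0.32 to 0.13) and Il2ra, which encodes the antibody's target, by -0.0049 (95% interval -0.22 to 0.21), and the sign of each turned under at least 1 of the other settings tried. Both were dim, at the 37.6 and 22.5 percentile of gene brightness, within the range of genes not expected in muscle. Of 6 regulatory T cell markers 0 were higher and 6 lower (median -0.089), where 35.2% of genes of the 30th to 50th percentile were higher. These values therefore say little of the target cells. No gene of the 19752 passed limma's test at a Benjamini-Hochberg adjusted p of 0.05 (0 genes, 0%), and 1240 had an unadjusted p under 0.05.

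On average 5 of the receptors were brighter on the anti-CD25 arrays and the other 4 were nearly level, though no difference passed the test across all genes. Tlr7, Tlr8 and Tlr13, all endosomal sensors of single-stranded or ribosomal RNA, were 1.82-fold, 1.74-fold and 1.48-fold brighter with anti-CD25 (n = 3 per group). Tlr4, the receptor for lipopolysaccharide, was 1.32-fold and Tlr6, a partner of Tlr2, 1.18-fold brighter. Tlr1, Tlr2, Tlr3 and Tlr9 differed by less than 0.07 log2 units in either direction. The smallest adjusted p among the 9 genes was 0.750 (limma). At an unadjusted p under 0.05, 5 of 9 were higher, against 2.3% of all genes, and 0 of 9 were lower, against 3.98%.

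Of the 9 members, 6 had a difference above 0, as did 41.1% of all genes. The share of genes higher with anti-CD25 moved with brightness, from 23.4% up to the 30th percentile and 35.2% up to the 50th to 51.4% up to the 75th and 56.8% above it, and 5 of the 9 receptors lay in the bin with 51.4%, 2 above and 2 below it. The count of 6 of 9 is close to those shares and is not read as a result. The median over the members was 0.24 log2 units and that over all genes was -0.026. In 4 of 9 members, Tlr4, Tlr6, Tlr7 and Tlr8, every anti-CD25 array was brighter than every rat IgG array, which held for 4.28% of all genes. The reverse held for 0 of 9 members and 7.46% of all genes. On high-Xist and low-Xist arrays alike, 5 of 9 members were higher (17.8% of all genes) and 2 of 9, Tlr1 and Tlr2, lower (25.3%), so 7 of 9 kept 1 sign (43% of all genes). With each array left out in turn, 5 of 9 stayed higher (22.5% of all genes) and 0 of 9 stayed lower (36.2%). The plot of each receptor on the 6 arrays shows this division.

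**Figure D1:**
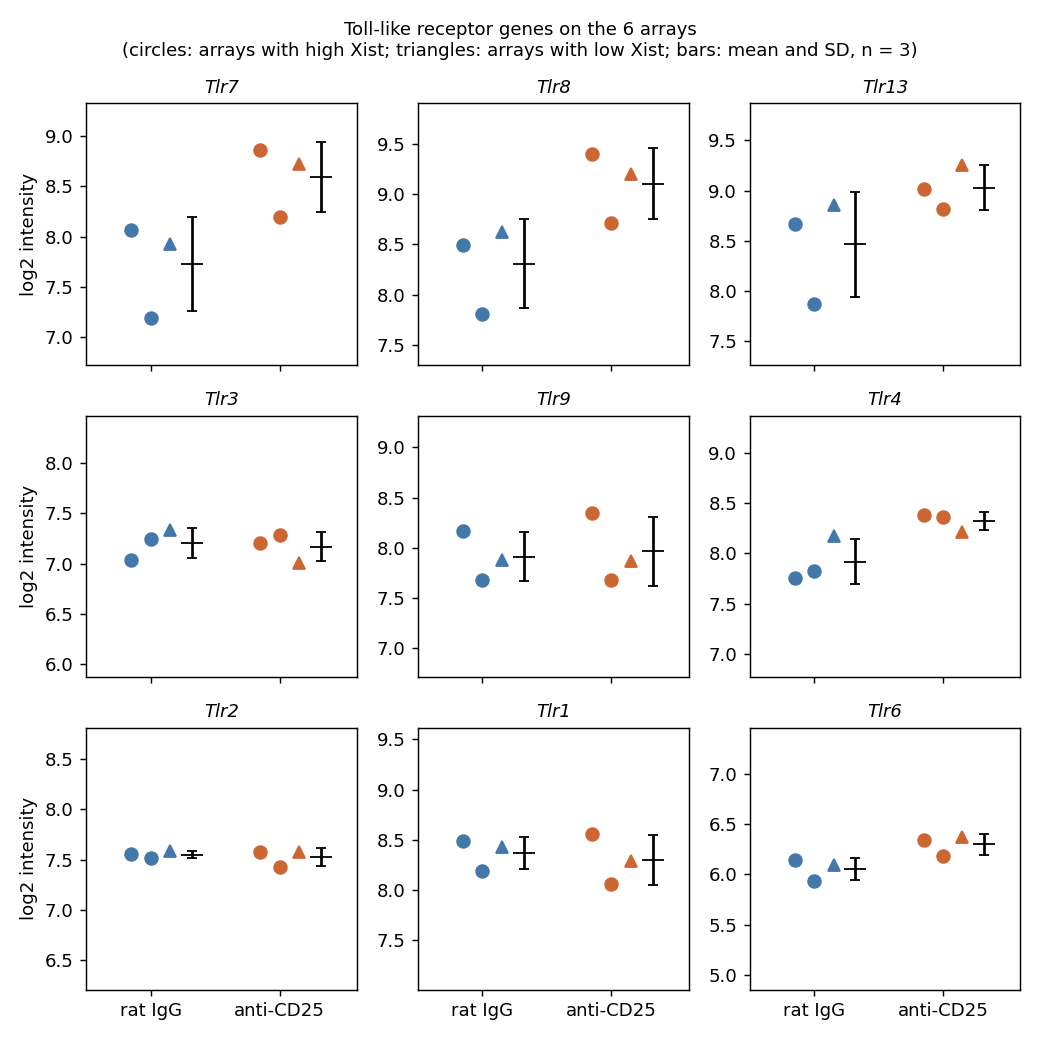
Log2 intensity of 9 receptor genes (vertical axis, each panel spanning the same range) in the rat IgG and anti-CD25 groups, 1 point per array (circles for high-Xist arrays, triangles for low-Xist arrays), with the mean and SD of 3 arrays beside them. Tlr7, Tlr8, Tlr4 and Tlr6 have no overlap between groups, and Tlr2 stays between 7.43 and 7.59 on all arrays.

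The DNA upstream of 3 endosomal receptor genes is shown because Tlr8 and Tlr13 were brighter with anti-CD25 while Tlr9 was not. Windows of 250 bases before the start of transcription, from RefSeq on GRCm38.p6, were found for 8 of the 10 members, and none for Tlr4 and Tlr7. They lie at chrX:167264330-167264579 on the minus strand for Tlr8, chrX:106143025-106143274 on the plus strand for Tlr13 and chr9:106222348-106222597 on the plus strand for Tlr9. Capitals mark matches, on either strand, to AGGAAG, a core bound by ETS factors such as the myeloid factor PU.1, or to TTGCNNAA, a C/EBP-type sequence.
Tlr8: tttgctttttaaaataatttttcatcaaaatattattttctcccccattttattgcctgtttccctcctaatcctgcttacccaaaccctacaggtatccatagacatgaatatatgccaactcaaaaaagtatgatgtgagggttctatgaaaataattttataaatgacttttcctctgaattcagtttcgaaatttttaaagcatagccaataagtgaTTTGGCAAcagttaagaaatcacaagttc
Tlr13: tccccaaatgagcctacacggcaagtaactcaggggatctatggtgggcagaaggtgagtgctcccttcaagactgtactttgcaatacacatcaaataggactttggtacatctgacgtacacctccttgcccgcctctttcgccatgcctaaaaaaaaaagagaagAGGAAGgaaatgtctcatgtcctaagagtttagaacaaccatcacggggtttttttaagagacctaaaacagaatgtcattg
Tlr9: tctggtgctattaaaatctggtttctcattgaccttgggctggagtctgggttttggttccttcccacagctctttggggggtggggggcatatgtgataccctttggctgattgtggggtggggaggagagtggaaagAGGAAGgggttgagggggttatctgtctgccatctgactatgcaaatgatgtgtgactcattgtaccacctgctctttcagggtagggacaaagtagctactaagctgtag

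Tlr13 and Tlr9 each held 1 AGGAAG and Tlr8 held none, in a set where 29.5% of 32851 windows of this length hold one. Tlr8 held 1 TTGCNNAA, on the strand opposite to the gene 29 to 22 bases before the start, and 9.56% of windows do. The 8 members with a window had 10 windows, more than 1 each for Tlr1 and Tlr6, so counts per gene are not like shares per window. In any window, 5 of the 8 held AGGAAG (Tlr1, Tlr2, Tlr6, Tlr9 and Tlr13) and 3 held TTGCNNAA (Tlr3, Tlr6 and Tlr8). These matches overlapped no other match. Neither the interferon-stimulated response element (2.98% of windows) nor an NF-kB-type sequence (0.356% of windows) was found in the 3 windows shown. Among the other members, Tlr6 held the former and Tlr3 the latter. A match is a description of letters. In the 3 windows shown, AGGAAG was held by Tlr13, brighter with anti-CD25, and by Tlr9, nearly level. Because Tlr4 and Tlr7 have no window, whether the motifs divide the receptors as the arrays did cannot be read.

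Tlr7 recognises single-stranded RNA and guanosine analogues in the endosome, and lies next to Tlr8 on the X chromosome. Its log2 intensity with rat IgG (replicates 1, 2 and 3, the order used throughout) was 8.06, 7.19 and 7.93, and with anti-CD25 it was 8.86, 8.20 and 8.72. All anti-CD25 arrays were above all rat IgG arrays, although the lowest of the former exceeded the highest of the latter by little beside the spread within each group. The group means were 7.73 ± 0.47 (SD, n = 3) and 8.59 ± 0.35 (SD, n = 3). Differences are given as anti-CD25 less rat IgG, and that of Tlr7 was 0.87 log2 units (SE 0.24, 95% interval 0.32 to 1.41), with unadjusted p = 0.00567 and adjusted p = 0.750 (limma). It was 0.90 on the 4 high-Xist arrays and 0.79 on the 2 low-Xist arrays. Without rat IgG 2, the dimmest array for this gene, it was 0.60.

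Tlr8, whose product is a sensor of RNA breakdown products in human cells and a less responsive receptor in mice, followed the same order of groups. It measured 8.49, 7.80 and 8.62 on the rat IgG arrays and 9.40, 8.71 and 9.20 on the anti-CD25 arrays. The groups did not overlap, but anti-CD25 2 exceeded rat IgG 3 by a small step. The means were 8.31 ± 0.44 (SD, n = 3) and 9.10 ± 0.35 (SD, n = 3), a difference of 0.80 (SE 0.23, 95% interval 0.27 to 1.32) with unadjusted p = 0.00771 and adjusted p = 0.750 (limma). The high-Xist arrays gave 0.91 and the low-Xist pair 0.57, and without rat IgG 2 it was 0.54.

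Tlr13, a mouse receptor for a conserved stretch of bacterial ribosomal RNA that is also X-linked, was the third of this set. Its values were 8.67, 7.88 and 8.86 with rat IgG and 9.02, 8.81 and 9.26 with anti-CD25. Here the groups overlapped, since anti-CD25 2 lay below rat IgG 3. The means were 8.47 ± 0.52 (SD, n = 3) and 9.03 ± 0.22 (SD, n = 3). The difference of 0.56 (SE 0.23, 95% interval 0.040 to 1.09) had unadjusted p = 0.0379 and adjusted p = 0.750 (limma), and it was 0.27 without rat IgG 2. It was 0.65 on high-Xist arrays and 0.40 on low-Xist arrays.

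These 3 genes shared their extremes. Rat IgG 2 was the dimmest array for each of them, and anti-CD25 1 or anti-CD25 3 the brightest. Their SD over all 6 arrays was 0.60 for Tlr7, 0.56 for Tlr8 and 0.47 for Tlr13, against a median SD of 0.11 among the 500 genes of nearest mean brightness to each. Those 500 genes had median differences between the groups of 0.010, 0.022 and 0.011. Because the 3 genes are X-linked, they were also compared between low-Xist and high-Xist arrays, with treatment as a block. Low minus high was 0.25 for Tlr7 (95% interval -0.32 to 0.81), 0.31 for Tlr8 (95% interval -0.22 to 0.83) and 0.46 for Tlr13 (95% interval 0.014 to 0.91), each with adjusted p = 1.00 (limma), where 4 genes of all those tested, 0.0203%, passed.

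Tlr3 and Tlr9 are the other endosomal members. Tlr3, which binds double-stranded RNA and signals through Ticam1 alone, measured 7.04, 7.24 and 7.33 with rat IgG and 7.21, 7.29 and 7.01 with anti-CD25. The groups overlapped, with a difference of -0.035 (95% interval -0.28 to 0.21), which was 0.11 on high-Xist arrays, -0.32 on low-Xist arrays, and turned above 0 without rat IgG 3 (0.028) or without anti-CD25 3 (0.045). Tlr9, the receptor for unmethylated CpG DNA, measured 8.17, 7.68 and 7.88 and then 8.35, 7.68 and 7.87 in the same order of arrays. The 2 sets of values were nearly alike, with a difference of 0.055 (95% interval -0.35 to 0.46), which was 0.088 and -0.012 in the 2 kinds of array. The upper bounds for Tlr3 and Tlr9 were 0.21 and 0.46, so a difference as large as that of Tlr7 lay outside both intervals, but the contrast between receptors was not tested.

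Among the surface receptors, the groups did not overlap for Tlr4 and Tlr6. Tlr4, which senses lipopolysaccharide with its partner Ly96 and also responds to matrix fragments, measured 7.76, 7.82 and 8.18 on the control arrays and 8.38, 8.36 and 8.21 on the anti-CD25 arrays. The groups did not overlap, but rat IgG 3 and anti-CD25 3 were nearly level. The means were 7.92 ± 0.23 (SD, n = 3) and 8.32 ± 0.091 (SD, n = 3), a difference of 0.40 (SE 0.12, 95% interval 0.13 to 0.67), with unadjusted p = 0.0086 and adjusted p = 0.750 (limma). It was 0.58 on the 4 high-Xist arrays and 0.038 on the 2 low-Xist arrays. The difference of these differences was -0.54. Its low-Xist side rests on 1 array per group, so the spread there is unknown and no test of it is given. Leaving out each array in turn gave 0.32 to 0.53.

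Tlr2 forms pairs with Tlr1 or Tlr6 that recognise bacterial lipopeptides. Tlr2 was the steadiest member, at 7.55, 7.51 and 7.59 with rat IgG and 7.58, 7.43 and 7.58 with anti-CD25. Its difference was -0.023 (95% interval -0.21 to 0.16). Tlr1 measured 8.49, 8.19 and 8.43 and then 8.56, 8.06 and 8.29, so the groups overlapped and both the brightest and the dimmest array were in the anti-CD25 group. Its difference was -0.066 (95% interval -0.37 to 0.24). The signs of Tlr1 and Tlr2 turned above 0 without anti-CD25 2, to 0.055 and 0.028.

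Tlr6 measured 6.14, 5.93 and 6.09 with rat IgG and 6.34, 6.18 and 6.38 with anti-CD25. The groups did not overlap, and the step between rat IgG 1 and anti-CD25 2 was small. The difference was 0.24 (SE 0.094, 95% interval 0.030 to 0.46), with unadjusted p = 0.0296 and adjusted p = 0.750 (limma), and it was 0.22 and 0.28 on high-Xist and low-Xist arrays. Tlr1 and Tlr6 are close paralogues, and how far their probes share sequence is not given in the sources used here.

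**Figure D2:**
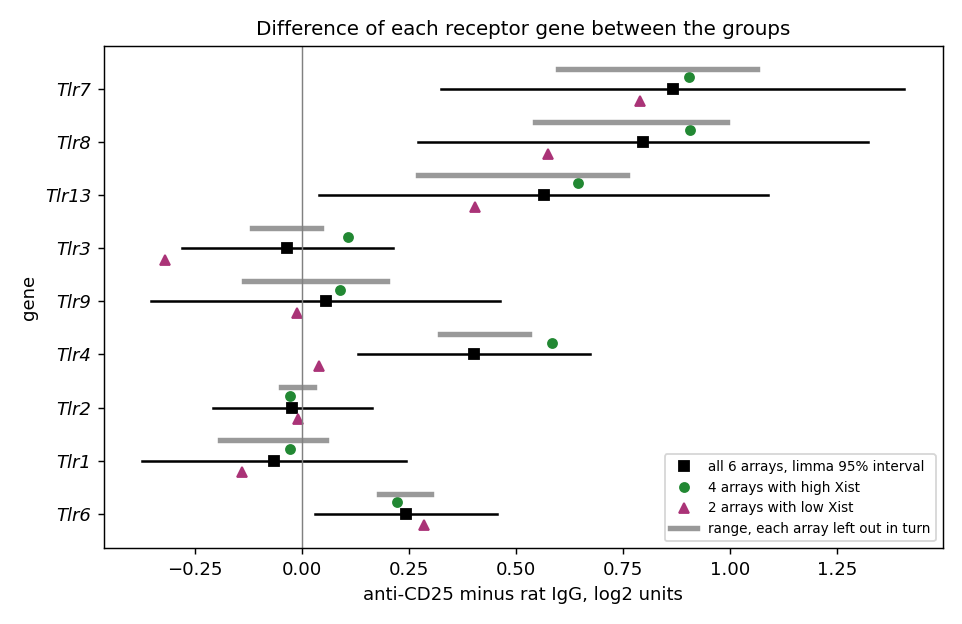
Difference between groups in log2 units (horizontal axis) for 9 receptor genes, with limma's 95% interval, the values on high-Xist arrays (4) and low-Xist arrays (2), and the range when each array is left out. Tlr4, Tlr6, Tlr7, Tlr8 and Tlr13 lie above 0 by every measure shown, although Tlr4 is at 0.038 on the 2 low-Xist arrays.

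For a single gene the exact two-sided permutation test of 3 against 3 arrays cannot go below p = 0.1. It gave 0.1 for Tlr4, Tlr6, Tlr7 and Tlr8, 0.2 for Tlr13, 0.7 for Tlr3, 0.8 for Tlr1 and Tlr2, and 1 for Tlr9.

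Which receptors were expressed was read from where each probe set lay in the range of the arrays. No detection call came with the values, and brightness depends on the probes as well as the transcript, so the receptors are not ranked against each other. The mean of every member but Tlr6 exceeded the mean of more than 99% of 1027 odorant receptor genes, which muscle has little cause to express, and of all 20 measured genes typical of other organs, such as Alb of liver and Prm1 of sperm. On all 6 arrays Tlr1, Tlr2, Tlr4, Tlr8, Tlr9 and Tlr13 lay above the median gene of the array, Tlr7 did so on 5 and Tlr3 on 2. Tlr6 lay at the 31.5th percentile of mean brightness. It was above 95.6% of odorant receptors but above only 60% of the genes of other organs, so its signal lay within the range of genes not expected in muscle.

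Genes that mark monocytes and macrophages were higher on the same arrays. Of 16 measured markers, among them Cd68, Csf1r and Itgam, 14 were higher and 2 lower, with a median difference of 0.30, where 56.8% of genes above the 75th percentile of brightness and 41.1% of all genes were higher. At an unadjusted p under 0.05, 5 of the 16 were higher, against 2.3% of all genes, and none passed the test. Mertk and Cd163 were higher without overlap, by 0.71 and 0.51, with unadjusted p = 0.00185 and 0.00197 (limma). No overlap in this direction held for 2 of the 16, against 4.28% of all genes, and the reverse for 0, against 7.46%. The summed level of the list ran from 14.00 to 14.30 log2 units with rat IgG and from 14.25 to 14.68 with anti-CD25, so the groups overlapped. Of the 16, Aif1, at the 43.2 percentile of brightness, lay within the range of genes not expected in muscle, whose highest mean was 6.96, and the other 15 lay above it. The mean over the 16 markers was lowest on rat IgG 2 and highest on anti-CD25 1, as for Tlr7 and Tlr8. It differed by 0.29 between the groups (exact two-sided permutation p = 0.3), 0.35 on high-Xist and 0.18 on low-Xist arrays. In whole muscle, more cells of a type and more RNA per cell cannot be told apart.

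Expressed relative to that marker mean on the same array, Tlr7 was 8.13, 7.56 and 7.92 with rat IgG and 8.53, 8.28 and 8.53 with anti-CD25. The groups still did not overlap, and the difference was 0.57. Tlr8 on this scale was 8.56, 8.18 and 8.62 against 9.07, 8.79 and 9.01, again without overlap, a difference of 0.50. Each had p = 0.1 in the exact two-sided permutation test, which can give no smaller value here. Tlr13 differed by 0.27 (exact permutation p = 0.4) and Tlr4 by 0.11 (exact permutation p = 0.6), and their groups overlapped. Subtracting the markers moved the median of all genes to -0.32, near the values this scale gave Tlr1 (-0.36), Tlr2 (-0.32), Tlr3 (-0.33) and Tlr9 (-0.24). Tlr1 and Tlr2 also had no overlap on this scale, in the opposite direction, with the same exact permutation p = 0.1. Single markers are not given on this scale, but before it they differed by -0.048 (Cx3cr1) to 0.71 (Mertk) around their mean of 0.29. The share of all genes without overlap on this scale was not computed, so the cases without overlap are descriptions. At an unadjusted p under 0.05 (limma), 14 genes were higher and 3921 lower on it. This scale was chosen after the data were seen.

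**Figure D3:**
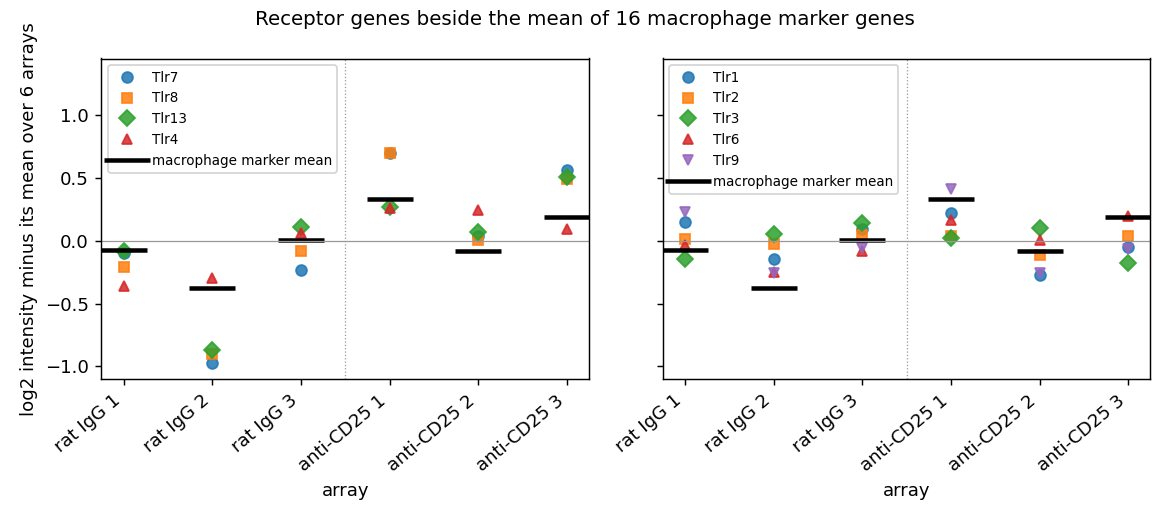
Log2 intensity of each receptor gene minus its own mean over 6 arrays (vertical axis) on each array (horizontal axis), with the mean of 16 macrophage markers as a black bar. Tlr7, Tlr8 and Tlr13 lie below the bar on rat IgG 2 and above it on anti-CD25 2 and 3, whereas Tlr2 hardly moves.

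Markers of other cell types that carry Toll-like receptors were also read. Plasmacytoid dendritic cells and B cells are known for Tlr7 and Tlr9. Of 6 plasmacytoid dendritic markers 2 were higher and 4 lower (median -0.062), and of 7 B cell markers 1 was higher and 6 lower (median -0.089). Siglech, which defines plasmacytoid cells, differed by 0.17 (SE 0.14), and its sign turned without rat IgG 3 and on high-Xist arrays. Of 10 neutrophil markers 4 were higher and 6 lower (median -0.041), and of 8 conventional dendritic markers 3 and 5 (median -0.10). The summed levels of these 4 lists overlapped between the groups. Many of these markers were dim, with 4 of 7 B cell and 4 of 10 neutrophil genes under the lower quartile of gene brightness, and 23.4% of genes up to the 30th percentile and 35.2% of those up to the 50th were higher. The counts were near those shares, so these lists say little of such cells.

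The remaining pathway was read by role, and no gene of it passed the test. Of 13 co-receptors and chaperones measured, 11 were higher and 2 lower, with a median of 0.23, where 56.8% of genes above the 75th percentile of brightness were higher. At an unadjusted p under 0.05, 4 of the 13 were higher, against 2.3% of all genes. Ly96, also called MD-2, which holds lipopolysaccharide for Tlr4, measured 9.02, 8.91 and 9.24 with rat IgG and 9.79, 9.39 and 9.45 with anti-CD25. Its groups did not overlap, and the difference was 0.49 (SE 0.13), with unadjusted p = 0.00448 and adjusted p = 0.750 (limma). It was 0.63 on high-Xist arrays and 0.21 on low-Xist arrays.

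Unc93b1, which carries the endosomal receptors out of the endoplasmic reticulum, differed by 0.28 (SE 0.16). Cd14, which hands lipopolysaccharide to Tlr4 and Ly96, differed by 0.20 (SE 0.19), with 0.45 and -0.30 on high-Xist and low-Xist arrays. Lbp, the serum protein that delivers lipopolysaccharide, was lowest of the list by statistic, at -0.11 (SE 0.12). Chosen after their values were seen, the protease Ctss, which cuts endosomal receptors into their active form, differed by 0.59 (SE 0.23) and Hsp90b1, the chaperone gp96, by 0.25 (SE 0.094).

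Adaptors and most kinases differed little. Of 7 adaptors 5 were higher (median 0.065), where 51.4% of genes of the 50th to 75th percentile of brightness were higher. Myd88, the adaptor of every Toll-like receptor but Tlr3, had the highest statistic at 0.11 (SE 0.11), and Ticam1, the adaptor of Tlr3 and Tlr4, was at 0.065 (SE 0.085). Sarm1, a restraining adaptor, was at -0.22 (SE 0.10). Of 14 measured kinases and ubiquitin ligases 6 were higher and 8 lower (median -0.0053, above 0 under 6 of 12 other settings), and 2 were higher at an unadjusted p under 0.05, against 2.3% of all genes. Map3k8, a kinase that links the receptors to the ERK pathway, stood highest at 0.49 (SE 0.17), with 0.70 on high-Xist arrays and 0.071 on low-Xist arrays. Tab1 stood lowest at -0.11 (SE 0.082), and Traf6, the ligase downstream of Myd88, was at 0.039. Irak4 and 3 further listed kinases or ligases are not analysed here.

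Among 9 transcription factors 5 were higher and 4 lower (median 0.021), where 51.4% of genes of the 50th to 75th percentile of brightness were higher. The median turned below 0 under 4 of 12 other settings tried, a further quantile normalization among them. Irf8, a myeloid factor, was at 0.16 (SE 0.15), Irf3 at -0.14, Irf7 at -0.071 and Rela at -0.016. Relb, of the non-canonical NF-kB arm, was lowest at -0.24 (SE 0.088). The 10 inhibitors divided evenly, 5 and 5. Tnfaip3, the deubiquitinase A20 that is itself induced by NF-kB, measured 7.47, 7.54 and 7.44 with rat IgG and 7.26, 7.05 and 7.19 with anti-CD25. All anti-CD25 arrays were below all rat IgG arrays, by -0.32 (SE 0.086), with unadjusted p = 0.0047 and adjusted p = 0.750 (limma). Irak3, which blocks Irak signalling in macrophages, was highest of the list at 0.14 (SE 0.081).

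Of 18 NF-kB target genes, products of the pathway, 7 were higher and 11 lower (median -0.059), near the 41.1% of all genes that were higher and the 35.2% among genes of the 30th to 50th percentile of brightness. At an unadjusted p under 0.05, 4 of the 18 were lower, against 3.98% of all genes, and none was higher. These 4, Tnf, Il1b, Ccl4 and Nos2, lay at the 30.1 to 40.4 percentile of brightness, within the range of genes not expected in muscle. Tnf measured 6.57, 6.93 and 6.81 with rat IgG and 6.30, 6.58 and 6.42 with anti-CD25, a difference of -0.33 (SE 0.12) with overlap at 1 array. Il1b differed by -0.46 (SE 0.17), which was -0.17 on high-Xist arrays and -1.05 on low-Xist arrays. Ccl4 was lowest by statistic at -0.24 (SE 0.079), and Ccl5 highest by statistic at 0.11 (SE 0.11). The median stayed below 0 under each of 12 other settings, while the IRF targets did not keep theirs. Of 10 IRF target genes 4 were higher and 6 lower (median -0.047), a median that turned to 0.032 without rat IgG 1 and 0.028 on high-Xist arrays. By statistic Usp18 was lowest at -0.26 (SE 0.10), Mx2 highest at 0.11 (SE 0.094), and Ifnb1, near the dim end, was at -0.019.

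Endogenous ligands of the receptors were mixed. Of 12 measured 8 were higher and 4 lower (median 0.040), a median that turned to -0.0076 without rat IgG 2. Higher values were found for 51.4% of genes of the 50th to 75th percentile of brightness and 56.8% of those above it. Hmgb1, a nuclear protein released by dying cells that acts on Tlr4, measured 8.04, 7.93 and 8.04 with rat IgG and 8.28, 8.21 and 8.33 with anti-CD25. The groups did not overlap, and the difference of 0.27 (SE 0.080), with unadjusted p = 0.00864 and adjusted p = 0.750 (limma), was 0.26 and 0.29 on high-Xist and low-Xist arrays. Fga, a fibrinogen chain, was lowest at -0.16 (SE 0.12).

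**Figure D4:**
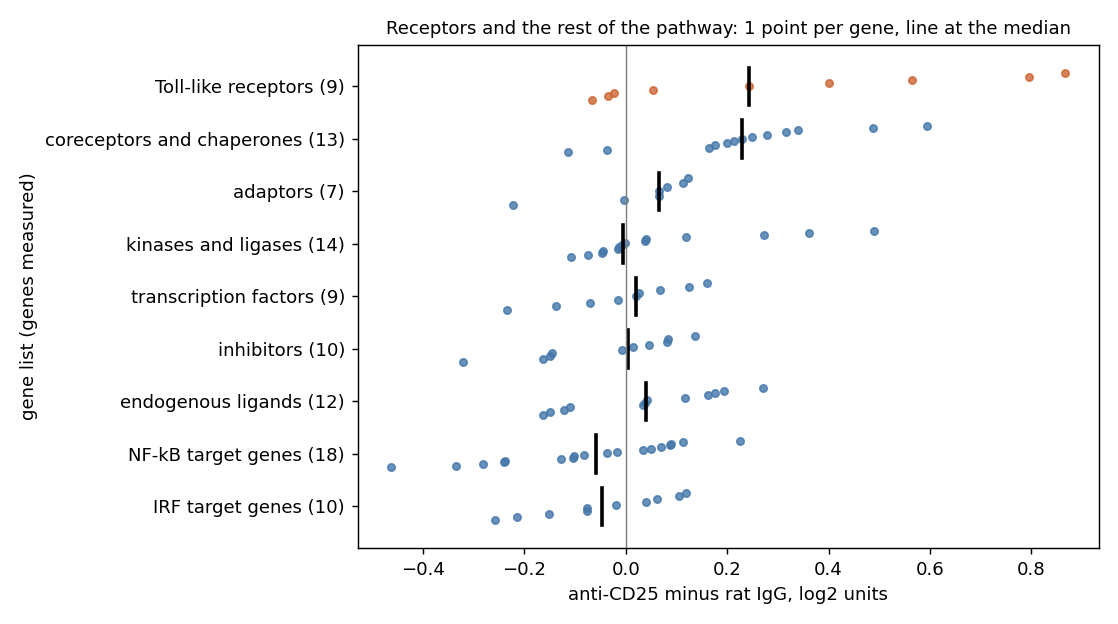
Difference between groups in log2 units (horizontal axis) for each gene of 9 lists (vertical axis, with the number of genes measured), 1 point per gene and a line at each median. The medians of the receptors and of their co-receptors and chaperones lie at 0.24 and 0.23, and those of NF-kB and IRF targets at -0.059 and -0.047.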

How the data were processed

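RNA from flash-frozen skeletal muscle, extracted with TRIzol and labelled with biotin, was hybridised to 1 Affymetrix array per sample, as the labels' protocols state. The authors deposited intensity values for 24922 probe sets on a linear scale, made with RMA in Affymetrix Power Tools per the submitters' processing notes. The sources used here give no versions. The lower quartiles of the arrays were 57.6, 57.7 and 51.2 with rat IgG and 51.9, 51.4 and 56.5 with anti-CD25. The groups thus differed in opposite directions on high-Xist and low-Xist arrays. Of 20 genes not expected in muscle, 0 were higher with anti-CD25 on high-Xist arrays (median -0.30) and 17 on low-Xist arrays (median 0.19). A link to the receptors' differences within each kind was not tested.

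Log2 was taken with no pseudocount, and no intensity filter was applied. The platform annotation gave 1 symbol for 21425 rows, several for 1399 and none for 2098. Of the named rows, 21347 matched a GRCm38.p6 gene table by Entrez identifier, with 0 updates. The probe set with the highest mean was used where a gene had several (921 of 19752 genes). limma 3.58.1 in R 4.3.3 (lmFit, eBayes, two-sided) was fitted over all genes with group as the only term, with Benjamini-Hochberg adjustment over all genes and 95% intervals. The fit was tested on simulated data, drawn with independent noise for each gene. Those data held no Xist split and no shift of the lower quartile, so they do not bear on these features of the arrays. Members and lists were chosen with earlier results of these data known. All members are named, and from each pathway list the genes with the highest and lowest statistic and 27 fixed genes, where measured. Arrays with equal replicate numbers in the titles were not treated as paired. Over all genes, the correlations of their deviations from group means were 0.030, -0.0067 and -0.17. These values cannot settle whether the numbers pair the arrays. Alternatives are in the closing section.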

Additional observations from a re-analysis of the deposited data

How the results depend on the processing

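Tlr4, Tlr7, Tlr8 and Tlr13 were higher with anti-CD25 under all 19 alternatives, of which 6 (both brightness filters, the mean of probe sets, the variance trend, the replicate block and the Xist covariate) cannot move a difference and 13 can, over ranges of 0.038 to 0.58, 0.57 to 1.06, 0.50 to 0.99 and 0.27 to 0.76, and no member had an adjusted p under 0.05 in any of those fitted with a test (limma). The number of members higher with anti-CD25 stayed within 1.5 times of 6. Their median, 0.24, was 0.40 above the 50th percentile of brightness, where Tlr3 and Tlr6 drop out, 0.038 on the 2 low-Xist arrays, and -0.050 relative to the macrophage marker mean. On that scale, chosen after seeing the data, Tlr6 was -0.050 and Tlr9 -0.24, and 3 genes passed, none of them a member. At an unadjusted p under 0.05 (limma), 14 genes were higher and 3921 lower on it, against 454 and 786 otherwise. Without rat IgG 3, 7 genes passed, none a receptor, against 0 with any other array left out. Numbers at an unadjusted p under 0.05 also moved by over 1.5 times, higher and lower in turn, to 473 and 306 above the 50th percentile and 484 and 400 above the 30th, 844 and 1410 with array weights, 1081 and 3000 on high-Xist arrays, 186 and 477 without rat IgG 2, 1143 and 1887 without rat IgG 3, and 284 and 457 without anti-CD25 1.

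Signs near 0 were not stable. Tlr3 turned to 0.022 with array weights and to 0.11 on high-Xist arrays, and ran from -0.12 to 0.045 with 1 array left out. Tlr9 was -0.012 on low-Xist arrays and ran from -0.14 to 0.20 with 1 array left out, Tlr1 from -0.19 to 0.055 and Tlr2 from -0.049 to 0.028. The cause was not tested. With 1 sample left out, the lone pair of arrays is assumed to vary like the other group. At an unadjusted p under 0.05, 3 members rather than 5 were higher with a variance trend and robust fitting, and without rat IgG 2, anti-CD25 1 or anti-CD25 3. With a replicate block on the titles' numbers 0 genes passed, and 533 were higher and 572 lower at an unadjusted p under 0.05. This block cannot move the difference of Tlr7, 0.87, which had an adjusted p of 0.170 (limma). With all 6 arrays and no block, 0 genes passed at a threshold of 0.1. On the 4 high-Xist arrays Tlr4 had an adjusted p of 0.0845 (limma), where the smallest over all genes was 0.0569. How many genes lay under 0.1 on those arrays was not counted, so Tlr4 is not singled out by this value. Few arrays and dim probe sets such as Tlr6 limit what could be detected.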
